A study of Rattus norvegicus with 6 samples.

Results

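The 10 genes described here encode amino acid transporters of the kidney proximal tubule: Slc1a1, Slc3a1, Slc3a2, Slc6a18, Slc6a19, Slc6a20, Slc7a7, Slc7a8, Slc7a9 and Slc7a13. They were chosen by name and matched to the arrays through the RefSeq transcript of each probe, which gave 16 of the 61537 probes on each array, with at least 1 probe for every gene. The transcript of Slc6a20 has the current rat symbol Slc6a20a. Each gene was represented by its brightest probe, as 10 of 29647 features tested. The arrays measured total RNA of the renal cortex, the outer layer of the kidney. The treated group was 3 male Sprague-Dawley rats that received the solvent dipropylene glycol (DPG) at 1000 mg/kg/day for 4 weeks. Its controls were 3 male Sprague-Dawley rats given water for 4 weeks. All rats had been bought at an age of 5 weeks, and each array held 1 rat.

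The proximal tubule takes back nearly all filtered amino acids. Transporters of the apical brush border bring them in from the tubular fluid, and exchangers of the basolateral membrane pass them on to the blood. Several are heterodimers in which a heavy chain (Slc3a1 or Slc3a2) brings a light chain of the Slc7 family to the membrane. In humans, loss of SLC3A1 or SLC7A9 causes cystinuria, loss of SLC6A19 Hartnup disorder, and loss of SLC7A7 lysinuric protein intolerance. Work in rodents places Slc7a13 in the straight segment (S3) and Slc6a19, Slc7a7 and Slc7a8 mainly in the earlier convoluted segments (S1 and S2), with Slc6a18 and Slc3a1 richer in the later part.

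All 16 probes were well above background on all 6 arrays, and so were all 9 markers tested for the convoluted and all 9 for the straight proximal tubule. Values per rat are scaled signals, the processed spot intensity divided by the array's 75th percentile, on a linear scale. They compare arrays for 1 probe and not 1 probe with another. Fold changes are log2, DPG over water, with the standard error (SE) from limma, and p-values were adjusted over all 29647 features. Because this is whole cortex, fewer cells of a type and less RNA per cell cannot be told apart. All DPG arrays lay on 1 slide and all water arrays on another, so slide and treatment cannot be told apart either. Between 39556 and 43184 probes per array were well above background, with the lowest number and 34 spots with outlier flags in water 3. Precision is limited by the small number of arrays.

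The transporters did not move as a block. Slc7a13, Slc3a1 and Slc6a18, all of the apical membrane, read higher in every DPG rat than in any water rat. Slc3a2, the basolateral heavy chain, read lower in every DPG rat than in any water rat. None of the 10 genes passed an adjusted p of 0.05 in limma, as did none of the 29647 features (0.00%), so these are differences in signal and not called changes. At an unadjusted p of 0.05, 4 of 10 members passed, 3 higher and 1 lower, where 12.4% of all features passed, 6.68% higher and 5.70% lower. The groups did not overlap for the same 4 members, where that held for 19.7% of all features, 10.7% with DPG above and 8.96% with DPG below. The median log2 fold change was -0.14 over the members and 0.0035 over all features. The 7 apical members had a median of 0.01 and a range from -0.17 to 0.78, and the 3 basolateral members were all below 0, from -0.38 to -0.20.

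**Figure D1:**
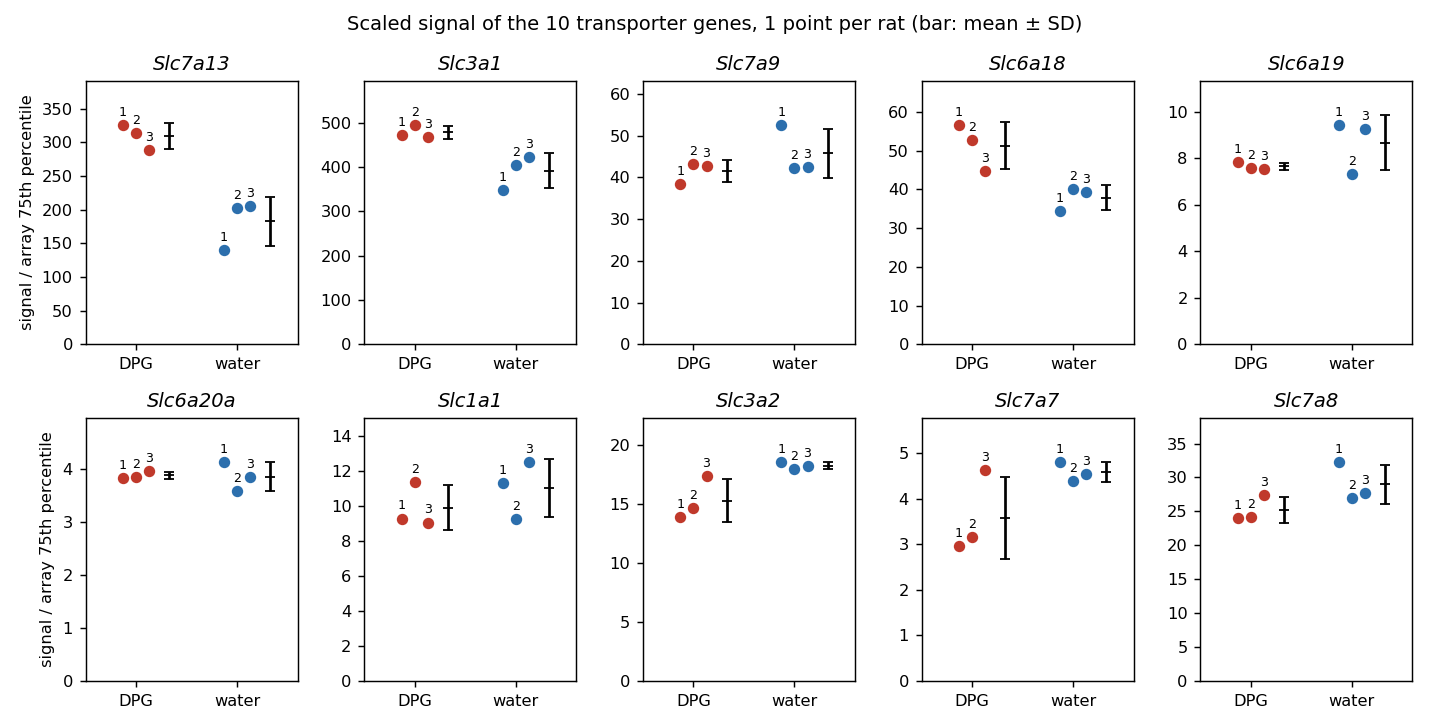
Scaled signal (processed intensity over the array's 75th percentile, linear axis from 0) of each gene's brightest probe, with DPG left and water right, 1 numbered point per rat and the mean ± SD as a bar (n = 3). Slc7a13, Slc3a1 and Slc6a18 sit higher in all 3 DPG rats, Slc3a2 sits lower, and the groups overlap for the other 6 genes.

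Slc7a13 encodes AGT1, a light chain that carries aspartate, glutamate and cystine and pairs with the heavy chain of Slc3a1. Its scaled signal was 326, 314 and 288 in DPG rats 1 to 3, against 141, 202 and 205 in water rats 1 to 3. The DPG rats lay close together and above all water rats, and water 1 was the lowest of the 6. The group means were 309 ± 19.3 in DPG and 183 ± 36.4 in water (SD, n = 3 each). This 1.72-fold difference was 0.78 ± 0.16 in log2 (SE), with a 95% interval from 0.38 to 1.18, and limma gave an adjusted p = 0.246. Its second probe read 31.4, 32.0 and 30.9 in DPG rats, against 18.1, 22.1 and 23.3 in water rats, a log2 fold change of 0.58 ± 0.11. Both probes therefore separated the groups, with water 1 lowest on each. Without water 1, the log2 fold change of Slc7a13 was 0.60.

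Slc3a1 encodes rBAT, the apical heavy chain that carries Slc7a9 or Slc7a13 to the brush border. Its scaled signal was 472, 495 and 467 in DPG rats, against 349, 404 and 423 in water rats. All DPG rats again lay above all water rats, and water 1 was lowest. DPG over water was 1.22-fold, or 0.29 ± 0.09 in log2 (SE, n = 3 rats each), with a 95% interval from 0.07 to 0.52 and an adjusted p = 0.336 in limma. The second probe of Slc3a1 read 206, 204 and 186 in DPG rats, against 139, 148 and 165 in water rats. That probe gave a log2 fold change of 0.40 ± 0.09 and did not overlap between the groups.

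Slc7a9 encodes b0,+AT, the other light chain of Slc3a1, which exchanges cystine and cationic amino acids for neutral ones. It read 38.5, 43.2 and 42.8 in DPG rats, against 52.6, 42.2 and 42.5 in water rats. Water 1 stood above the others, and the remaining 5 rats lay between 38.5 and 43.2. For Slc7a9 the log2 difference was -0.13 ± 0.11 (SE, n = 3 rats each), with a 95% interval from -0.41 to 0.14 and a limma adjusted p = 0.657. The value for Slc7a9 was -0.03 without water 1, -0.08 without DPG 1 and -0.05 with normexp background correction.

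Within each array the log2 signal of a light chain minus that of its heavy chain, centred on the water mean, follows the balance of a pair across rats. For Slc7a13 over Slc3a1 this difference was 0.59, 0.46 and 0.42 in DPG rats, against -0.19, 0.12 and 0.07 in water rats. For Slc7a9 over Slc3a1 it was -0.51, -0.42 and -0.35 in DPG rats, against 0.37, -0.16 and -0.22 in water rats. The groups did not overlap in either difference, and water 1 was the most distant from the DPG rats in both. The difference between the light chains themselves, Slc7a13 over Slc7a9, was chosen after the values were seen. It was 1.10, 0.88 and 0.77 in DPG rats, against -0.56, 0.27 and 0.29 in water rats. These values show unequal change within an array and not which gene moved. They rest on the brightest probe of each gene, with log2 fold changes of 0.78 for Slc7a13 and 0.29 for Slc3a1. The second probes lay closer together, at 0.58 for Slc7a13 and 0.40 for Slc3a1, so the size of the imbalance depends on the probe.

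Among the apical Slc6 carriers, Slc6a18 encodes B0AT3, a carrier of neutral amino acids such as glycine and alanine. Its scaled signal was 56.7, 52.7 and 44.7 in DPG rats, against 34.3, 40.0 and 39.4 in water rats. The groups did not overlap, with DPG 3 nearest to the water rats. In log2 the difference was 0.43 ± 0.12 (SE, n = 3 rats each), with a 95% interval from 0.15 to 0.72 and a limma adjusted p = 0.292. The second probe of Slc6a18 read 29.0, 27.1 and 24.7 in DPG rats, against 19.2, 22.3 and 20.6 in water rats, and also separated the groups. The third and dimmest probe read 5.99, 6.72 and 5.66 in DPG rats, against 4.66, 6.17 and 4.89 in water rats. It overlapped through water 2, with a log2 fold change of 0.23 ± 0.13, beside 0.38 ± 0.09 for the second probe.

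Slc6a19 encodes B0AT1, the main apical carrier of neutral amino acids in the early tubule. It read 7.82, 7.59 and 7.53 in DPG rats, against 9.43, 7.30 and 9.27 in water rats. The DPG rats lay close together, between water 2 below them and water 1 and 3 above them. For Slc6a19 the log2 fold change came to -0.17 ± 0.11 (SE, n = 3 rats each), with a 95% interval from -0.45 to 0.11 and a limma adjusted p = 0.585. Without water 2 it was -0.29, with an adjusted p = 0.326 in limma (0.326 to 0.861 over its alternatives), without water 1 it was -0.11, and with normexp -0.08. Slc6a18 and Slc6a19 are direct neighbours on rat chromosome 1, with 0 coding genes between them in the RefSeq annotation of the assembly GRCr8. The within-array log2 difference Slc6a18 over Slc6a19, centred on the water mean and chosen after the values were seen, was 0.72, 0.66 and 0.43 in DPG rats, against -0.27, 0.32 and -0.05 in water rats.

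The promoters of Slc3a1 and Slc6a18 are shown because both genes read higher in all DPG rats, and that of Slc6a19 because it is the neighbour of Slc6a18 that did not. Each is the 250 bases before the annotated start, 5′ to 3′ on the gene's strand, from RefSeq on GRCr8. Of the 10 members, 8 matched the promoter table; Slc1a1 and Slc7a13 did not. Capitals mark matches on either strand to a site of hepatocyte nuclear factor 4 (HNF4, CAAAGTCCA) or a TATA box (TATAAA).
Slc3a1 (chr6:15394750-15394999, minus strand): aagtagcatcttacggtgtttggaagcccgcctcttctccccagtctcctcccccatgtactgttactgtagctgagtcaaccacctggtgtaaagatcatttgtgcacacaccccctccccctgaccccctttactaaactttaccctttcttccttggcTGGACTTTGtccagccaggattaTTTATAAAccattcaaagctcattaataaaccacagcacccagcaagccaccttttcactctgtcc
Slc6a18 (chr1:31436403-31436652, plus strand): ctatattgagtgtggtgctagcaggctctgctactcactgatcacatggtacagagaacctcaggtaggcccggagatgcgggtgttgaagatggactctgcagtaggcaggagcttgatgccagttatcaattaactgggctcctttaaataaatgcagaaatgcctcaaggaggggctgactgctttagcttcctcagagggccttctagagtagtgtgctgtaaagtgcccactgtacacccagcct
Slc6a19 (chr1:31414494-31414743, plus strand): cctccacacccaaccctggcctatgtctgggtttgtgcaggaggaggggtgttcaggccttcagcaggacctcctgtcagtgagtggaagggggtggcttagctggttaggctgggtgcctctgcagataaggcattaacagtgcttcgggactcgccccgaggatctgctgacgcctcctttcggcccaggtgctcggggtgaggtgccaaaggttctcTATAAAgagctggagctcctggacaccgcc
The Slc3a1 window held the HNF4 letters on the reverse strand, 89 to 81 bases before the start. It also held TATAAA on both strands, 66 to 61 and 64 to 59 bases before the start, so that these matches overlap in 1 run of capitals. Slc6a19 held TATAAA at 30 to 25 bases before its start, and the Slc6a18 window held neither set of letters. Among 33469 promoter windows of 250 bases, 0.338% held the HNF4 letters and 12.9% TATAAA. A match in letters is not a shown binding site.

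Slc6a20a encodes SIT1, the apical carrier of proline and other imino acids. It read 3.83, 3.85 and 3.95 in DPG rats, against 4.14, 3.58 and 3.85 in water rats. The DPG rats fell inside the range of the water rats, and the log2 fold change came to 0.01 ± 0.08 (SE, n = 3 rats each), with a 95% interval from -0.17 to 0.20. The sign turned under 4 alternatives, given with the processing. Its second probe spread widely, at 0.582, 0.587 and 0.448 in DPG rats, against 0.433, 0.350 and 1.04 in water rats.

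Slc1a1 encodes EAAT3, the apical carrier of glutamate and aspartate, whose loss in humans causes dicarboxylic aminoaciduria. It read 9.28, 11.4 and 9.05 in DPG rats, against 11.3, 9.26 and 12.5 in water rats. The groups overlapped, and the log2 fold change came to -0.15 ± 0.15 (SE, n = 3 rats each), with a 95% interval from -0.51 to 0.21. Leaving out single rats gave Slc1a1 values of -0.27 without water 2, -0.26 without DPG 2, -0.09 without DPG 3 and -0.06 without water 3. For both Slc6a20a and Slc1a1 the intervals set bounds on the difference and do not show that the groups were alike.

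**Figure D2:**
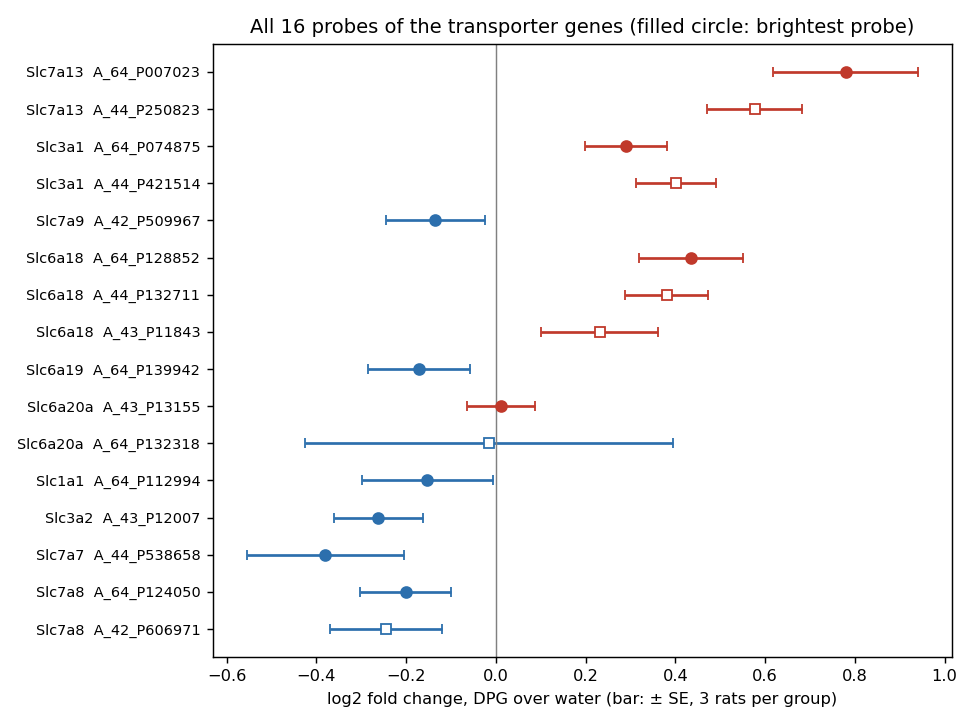
Log2 fold change, DPG over water, with its standard error (3 rats per group) for all 16 probes of the 10 genes, where a filled circle is the brightest probe and an open square any other. Every probe of Slc7a13, Slc3a1 and Slc6a18 lies above 0 and both probes of Slc7a8 lie below 0, while the probes of Slc6a20a lie on both sides of 0.

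On the basolateral side, Slc3a2 encodes 4F2hc (CD98), the heavy chain that partners Slc7a7 and Slc7a8. It read 13.9, 14.7 and 17.4 in DPG rats, against 18.6, 18.0 and 18.2 in water rats. The water rats lay within a narrow range above all DPG rats, and DPG 3 was nearest to them. The group means were 15.3 ± 1.83 in DPG and 18.3 ± 0.321 in water (SD, n = 3 each). Slc3a2 had a log2 fold change of -0.26 ± 0.10 (SE), with a 95% interval from -0.50 to -0.02 and a limma adjusted p = 0.385. With 1 probe on the array, Slc3a2 has no second reading. It passed an unadjusted p of 0.05 in 9 of 17 alternatives, fewer than Slc3a1 with 16, and Slc6a18 and Slc7a13 with 17 each. Of these, 11 used all 6 arrays, and Slc3a2 passed in 8 of them. With a rat left out it passed in 1 of 6 fits, that without DPG 3. Slc3a1 passed in 5 of those 6, and Slc6a18 and Slc7a13 in all 6.

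Slc7a7 encodes y+LAT1, which exports cationic amino acids to the blood in exchange for neutral ones and sodium. It read 2.97, 3.17 and 4.62 in DPG rats, against 4.82, 4.39 and 4.54 in water rats. DPG 1 and 2 lay below all water rats, and DPG 3 lay among them. In log2, DPG over water came to -0.38 ± 0.18 (SE, n = 3 rats each), with a 95% interval from -0.81 to 0.05 and a limma adjusted p = 0.449. Without DPG 3 the log2 fold change of Slc7a7 was -0.58, with a limma adjusted p = 0.222, where the range over all its alternatives was 0.222 to 0.753.

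Slc7a8 encodes LAT2, an exchanger of neutral amino acids. Its signal was 24.0, 24.2 and 27.5 in DPG rats, against 32.3, 27.0 and 27.6 in water rats. DPG 3 overlapped with water 2, and water 1 was highest. For Slc7a8 the log2 fold change came to -0.20 ± 0.10 (SE, n = 3 rats each), with a limma adjusted p = 0.483, and the second probe of Slc7a8 gave -0.24 ± 0.12. The value for Slc7a8 was -0.12 without water 1 and -0.09 with normexp. Within arrays, Slc7a8 over Slc3a2 was 0.13, 0.06 and -0.002 in DPG rats, against 0.13, -0.07 and -0.06 in water rats (log2, centred on the water mean). Slc7a7 over Slc3a2 was -0.23, -0.21 and 0.09 in DPG rats, against 0.05, -0.04 and -0.01 in water rats. The groups overlapped in both differences. Slc7a7 and Slc7a8 lie on rat chromosome 15 with 15 coding genes between them.

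Water 1 and DPG 3 lay at an edge of their group in several members, and most often over all features as well. In 8 of 10 members water 1 was the water rat farthest from the DPG side, where this held for 36.2% of all features. In 6 of 10 members DPG 3 was the DPG rat nearest to the water side, where this held for 40.7% of all features. Members that share an array are not independent, and these counts are a description.

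Segment marker lists, which hold none of the members and were chosen with earlier results known, are given beside them. No marker passed an adjusted p of 0.05 in limma, and 12.4% of all features passed an unadjusted p of 0.05. Of 9 convoluted tubule markers, 8 had a log2 fold change below 0, and 4 passed an unadjusted p of 0.05 (Slc5a2, Slc2a2, Slc5a12 and Slc4a4, from -0.40 to -0.29), and the median was -0.29. The mean shift of that list was -0.21, -0.21 and -0.20 in DPG rats, against 0.10, -0.11 and 0.01 in water rats (log2, centred on the water mean). Of 9 straight tubule markers, 5 were above 0, and 4 passed an unadjusted p of 0.05 (Slc22a7 0.75, Slc22a13 0.69, Aadat 0.62 and Atp11a 0.28), and the median was 0.18. The 3 probes of Slc22a13 differed, with log2 fold changes from 0.69 to 2.57. The glucose carrier gene Slc5a1 (-0.12), Slc5a8 (-0.39), Gas2 (-0.23) and Napsa (-0.15) of the same list were below 0. Its mean shift was 0.22, 0.19 and 0.13 in DPG rats, against -0.08, -0.04 and 0.12 in water rats, so DPG 3 lay only just above water 3. Thick ascending limb markers were above 0 for 5 of 5 genes (median 0.28). Of these, 4 (80.0%) passed an unadjusted p of 0.05, a larger share than the 44.4% of each proximal list. Medians were -0.17 for 7 collecting duct, -0.19 for 5 podocyte, -0.05 for 4 endothelial, and 0.13 for 5 leukocyte markers. At an unadjusted p of 0.05, 2 collecting duct and 2 podocyte markers were lower, and 1 endothelial and 1 leukocyte marker higher. The 3 adipocyte markers tested went opposite ways, with log2 fold changes of 1.89 for Fabp4 and 0.56 for Cidec, whose groups overlapped, and -0.45 for Adipoq, whose groups did not. All 3 passed an unadjusted p of 0.05. The part of these shifts in the transporter values was not tested.

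**Figure D3:**
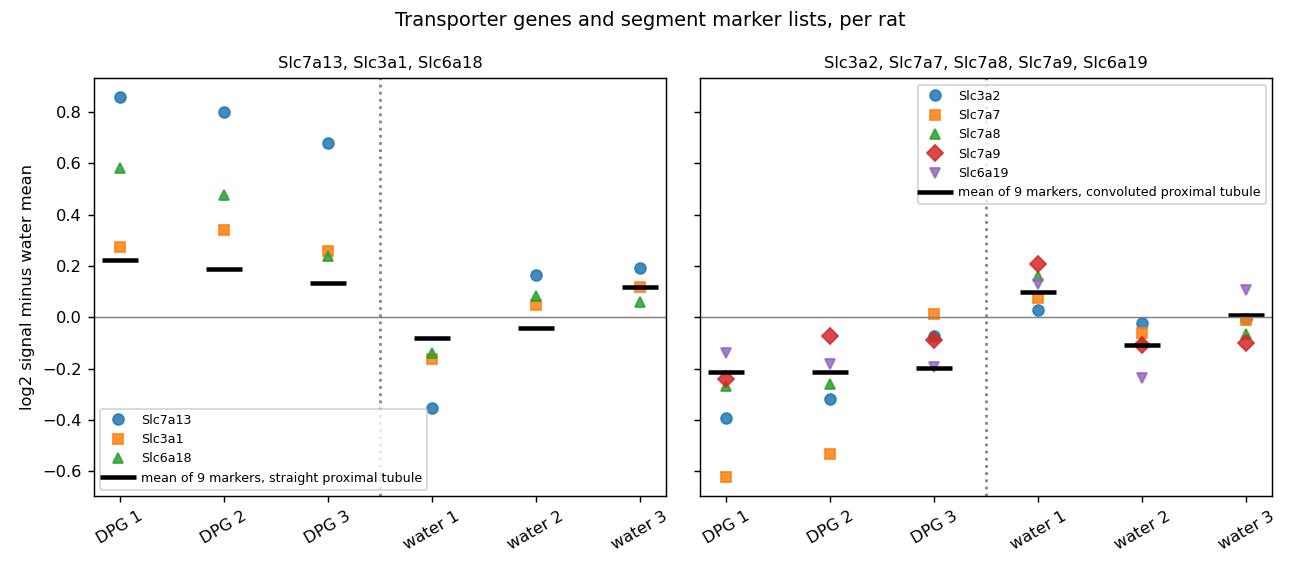
Log2 scaled signal minus the water mean for each rat, DPG left and water right of the dotted line. The left panel holds 3 of the 4 members above 0 in DPG over water, and the right panel 5 of the 6 below 0. Slc6a20a (0.01) and Slc1a1 (-0.15) are not shown. The mean of 9 straight (left) or 9 convoluted (right) tubule markers is a black bar. Members were placed by the direction of their difference, so sharing a panel with a marker list is no test of a match. Slc7a13 lies farthest above the marker bar in all 3 DPG rats of the left panel, and DPG 3 lies near the water rats for Slc7a7.

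Of 31 other amino acid transporter genes listed, 21 had a tested feature, 13 above and 8 below 0, with a median log2 fold change of 0.07. At an unadjusted p of 0.05, 4 were higher and 1 lower, where 6.68% of all features were higher and 5.70% lower, and 0 passed an adjusted p of 0.05 in limma. Among the 4, Slc1a2 and Slc38a4 entered the test only through their detection in DPG rats, the group where they are high. Slc38a1, with a log2 fold change of 0.34, entered the same way and counts among the 13 above 0 and in the median. Where detection on all 6 arrays was required, 2 were higher and 1 lower. Slc7a12, whose mouse counterpart carries small neutral amino acids, was the largest of them. It read 9.73, 9.79 and 10.5 in DPG rats, against 2.23, 2.97 and 5.31 in water rats. The groups were well apart, although the water rats also spread widely, with water 3 highest among them. On the 1 probe of this gene the difference was 3.05-fold, or 1.61 ± 0.31 in log2 (SE, n = 3 rats each), and limma gave an adjusted p = 0.224.

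Slc1a4, which carries alanine, serine and cysteine, read 0.0664, 0.0599 and 0.0581 in DPG rats, against 0.0241, 0.0400 and 0.0453 in water rats, with a log2 fold change of 0.80 ± 0.24. Slc1a2, a glutamate carrier best known from astrocytes, was not well above background on any water array and was on all DPG arrays. With the water arrays held at the detection floor, the DPG mean of Slc1a2 was 1.31-fold higher, a lower bound on the difference that was not tested. Without the floor its log2 fold change was 1.15 ± 0.17 (limma adjusted p = 0.214). Slc38a4, a system A carrier, was well above background on 2 of 3 water arrays and had a log2 fold change of 1.06 ± 0.22 (limma adjusted p = 0.246), or 1.57-fold with the water arrays held at the floor. The amino acid-regulated system A carrier Slc38a2 had 0.61 ± 0.30, with 5.32, 7.65 and 3.29 in DPG rats, against 3.34, 3.49 and 3.25 in water rats, so DPG 3 lay among the water rats. The lysosomal carrier Slc38a7 had -0.36 ± 0.14.

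**Figure D4:**
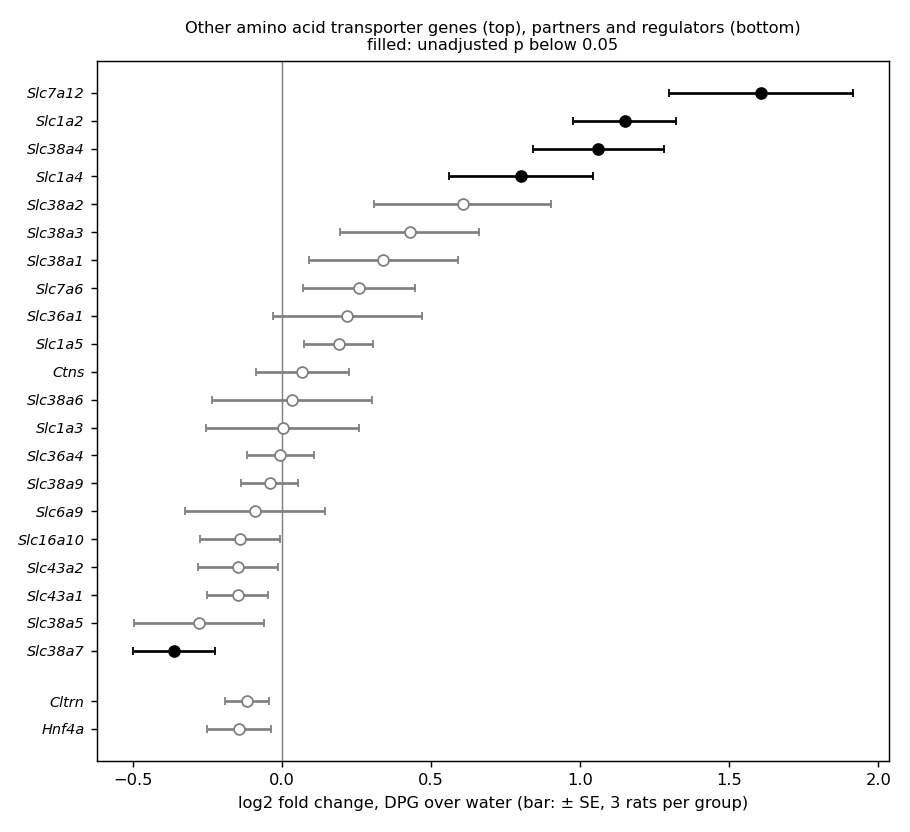
Log2 fold change, DPG over water, with its standard error (3 rats per group) for 21 other amino acid transporter genes (top) and 2 partner and regulator genes (bottom), filled where the unadjusted p is below 0.05. Slc7a12 lies farthest to the right at 1.61. Slc1a2, Slc38a4 and Slc38a1 rest on dim spots that were not well above background on every water array.

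Cltrn encodes collectrin, which in mice brings Slc6a18, Slc6a19 and Slc6a20a to the renal brush border. Cltrn read 146, 152 and 154 in DPG rats, against 176, 160 and 155 in water rats. Its rats did not overlap, though DPG 3 and water 3 nearly met, and the log2 fold change was -0.12 ± 0.07 (limma adjusted p = 0.574). Hnf4a, a transcription factor gene of the proximal tubule, had a log2 difference of -0.14 ± 0.11, and its groups overlapped.

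Likeness of pattern was measured over the 6 arrays, as the root mean square difference of log2 values centred per gene, across 11924 features with a symbol. Nearest to Slc7a13 were Tgfbi (0.052), Kcnn4 (0.058) and the asparaginase gene Aspg (0.076). Tgfbi read 7.18, 6.57 and 6.42 in DPG rats, against 3.01, 4.74 and 4.42 in water rats. In all 3 genes water 1 was lowest, as it was for Slc7a13, which follows from choosing them by likeness over the same 6 arrays. Nearest to Slc3a2, the lower member with the smallest p, were Dennd1a (0.015), Icam1 (0.030) and Pck1 (0.039). Pck1, the gluconeogenic enzyme phosphoenolpyruvate carboxykinase, read 149, 148 and 178 in DPG rats, against 201, 191 and 186 in water rats.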

How the data were processed

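Cy3-labelled cRNA from the renal cortex of each of 6 rats was run on a one-colour Agilent array of its own, per the labels' protocols. The scanner files, made per the file headers with Feature Extraction 10.7.1.1 of Agilent, give each spot's intensity with background subtracted and spatial trends removed. Median pixel intensity, also deposited, served 1 alternative. A deposited series table gives, on a linear scale, the ratio of processed signal to a value close to the 75th percentile of the array. Its column medians were 0.111, 0.108 and 0.112 for DPG 1 to 3, and 0.110, 0.111 and 0.114 for water 1 to 3. The sources used here do not give the submitters' own scaling. It is not centred, and its direction matches the scanner signal.

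Processed signals were divided by the 75th percentile of their array and taken to log2. A probe stayed in if the 3 arrays of either group all showed it well above background, and 23 with an outlier flag were dropped, which left 40383. No spot was saturated. Names came from the RefSeq table of GRCr8 through unversioned accessions (28206 probes matched 1 symbol, 33331 kept their identifier). The brightest kept probe stood for a gene. Coordinates are printed only for promoter windows, on GRCr8. The comparison used lmFit and eBayes of limma 3.58.1 (R 4.3.3), two-sided, and p-values were adjusted by Benjamini-Hochberg across every feature, with a threshold of 0.05. Single probes were fitted over all kept probes. With 3 rats a group, 0.1 is the smallest two-sided p that an exact permutation test allows, so none was run. The fit was also run on simulated data, whose noise was independent between features and held no slide effect. That run therefore says nothing about the slides, which coincide with the groups here.

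The members, gene lists and marker lists were chosen with earlier results of these data known. Named were all members, the 6 other transporters with the smallest p, Slc38a1 for its detection, partners and regulators, and 3 genes like each leading member. Some partner and regulator genes are not reported here.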

Additional observations from a re-analysis of the deposited data

How the results depend on the processing

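Each member kept the sign of its log2 fold change in 17 alternatives, except Slc6a20a. Its value, 0.01 with all probes and arrays as described, was -0.10 with normexp and -0.0016 with the mean of its probes. With an animal left out it lay between -0.041 (without water 2) and 0.064 (without water 1), and was -0.0018 without DPG 3. Slc7a13 ranged from 0.60 (without water 1) to 0.91 (normexp), Slc6a18 from 0.35 to 0.53, Slc3a1 from 0.21 to 0.35, Slc3a2 from -0.36 to -0.17, Slc7a7 from -0.58 (without DPG 3) to -0.26, Slc7a8 from -0.26 to -0.09, Slc7a9 from -0.19 to -0.03, Slc6a19 from -0.29 to -0.08 and Slc1a1 from -0.27 to -0.06. No member passed an adjusted p of 0.05 in any alternative, and the lowest was 0.143, for Slc7a13 with normexp. The count of members at an unadjusted p of 0.05, against 4, was 3 with normexp, without the filter on dim probes and with the replicate block, and 5 with array quality weights, where Slc7a7 also passed. Leaving out an animal gave 2 (without DPG 2, where Slc7a13 and Slc6a18 passed) to 5. Fitting each probe singly gave 7, a count of probes. The count of other transporters, against 5, was 3 where probes had to be above background on all 6 arrays, which tests fewer genes. Leaving out an animal gave 3 (without DPG 1) to 7. The adjusted count over all features, against 0, lay between 0 and 1 when an animal was left out, and was 1 without DPG 2 and without water 2. At an unadjusted p of 0.05 that count, against 3669, lay between 2569 and 3942 when an animal was left out. No pairing by replicate number was visible in the signals: deviations from the group means correlated at -0.02, -0.09 and -0.07 across features for same-numbered rats. For differently numbered rats the correlations lay between -0.06 and 0.13. These values do not show how the rats were housed or handled. With the number as a block, 2987 features passed an unadjusted p of 0.05. The cause of these differences was not tested. A slide block could not be fitted.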
